A study of Mus musculus with 16 samples.

Results

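The genes described here are 33 members of the machinery that folds proteins in the endoplasmic reticulum (ER) and of the unfolded protein response (UPR), the signalling that adjusts that machinery to the load of unfolded protein. They were taken from a list of gene symbols, and all 33 were among the 18194 genes with a measured value. For each gene the Affymetrix probe set with the highest mean over the 16 arrays was used. The symbols name known members of these pathways and no measured value enters the rule, but the list was drawn up with earlier results of these data known.

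RNA was labelled as coming from peritoneal tumour-associated macrophages (TAMs) of female C57BL/6N mice. The mice received 1 mg of tamoxifen by gavage at 8 to 12 weeks of age, ID8-luciferase mouse ovarian cancer cells into the peritoneum 3 weeks later, and were sampled after 4 weeks of tumour growth. Peritoneal cells were sorted as CD45+, CD11b+ and F4/80+ and split by the chemokine receptor CCR2. The 4 groups, of 4 arrays each, were CCR2+ cells of control mice, CCR2+ cells of RbpjiΔEC mice, CCR2- cells of control mice and CCR2- cells of RbpjiΔEC mice. RbpjiΔEC is the labels' name for the inducible deletion of Rbpj, the DNA-binding partner of Notch receptors, in endothelial cells. The Cre driver and the genotype of the control mice are not given in the sources used here. The level of Rbpj in TAMs does not check a deletion made in endothelial cells, and is not used here. The tumour and the tamoxifen were common to all groups, and there was no tumour-free group. Nothing in the labels ties the arrays to separate animals, so the p-values measure the spread between these samples, which may be technical.

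In cells with a heavy load of secretory protein, the chaperone BiP (Hspa5) leaves the sensors PERK (Eif2ak3), IRE1α (Ern1) and ATF6 in the ER membrane to bind unfolded protein. PERK slows translation and favours the making of the transcription factor ATF4. IRE1α splices the Xbp1 mRNA into a form that encodes an active transcription factor, and ATF6 travels to the Golgi, where it is cut to release one. Their targets are chaperones, disulfide isomerases and the proteins of ER-associated degradation (ERAD), which sends misfolded proteins back to the cytosol. Secretory cells such as plasma cells depend on this machinery, and macrophages use it when they secrete cytokines or take up lipid.

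The labelled cell type was checked against its markers first, because it bears on every comparison of the sort labels. The F4/80 gene Adgre1 lay at 13.05 to 13.41 (log2 of normalized intensity) in CCR2+ and at 8.88 to 9.48 in CCR2- arrays. The CD11b gene Itgam lay at 12.57 to 12.83 against 9.12 to 9.56, Csf1r, the receptor for the macrophage growth factor, at 12.98 to 13.31 against 9.13 to 11.02, and Gata6, which marks large peritoneal macrophages, at 11.78 to 12.17 against 7.15 to 8.40. All 12 measured markers of large peritoneal macrophages were higher in the CCR2+ arrays of both genotypes. The B cell genes Cd79a and Ms4a1 ran the other way. With CCR2+ given first, Cd79a lay at 7.35 to 7.84 against 12.53 to 12.93, and Ms4a1 at 6.52 to 7.66 against 13.52 to 13.62. The whole B cell list, 11 measured genes, passed as lower in CCR2+ cells, with summed intensities of 3339 to 3770 against 62230 to 66110. Of 8 measured plasma cell markers, 6 passed as lower and 1 as higher in CCR2+ cells of control mice, with summed intensities of 3602 to 3792 against 12350 to 14470. Mzb1, which encodes an ER protein of B and plasma cells, lay at 6.70 to 6.93 against 11.41 to 12.05. Prdm1 lay at 6.89 to 7.25 against 8.76 to 9.42 and Irf4 at 10.59 to 10.96 against 11.95 to 12.35, whereas Sdc1 overlapped between the labels. In control mice 7 of 9 measured macrophage gate and lineage markers were higher in CCR2+ cells and 1 was lower. Of the other lists there, 7 of 8 dendritic cell markers, 2 of 9 tumour and mesothelial markers, 1 of 9 T and NK cell markers and 1 of 7 endothelial markers were lower, and 1 of 8 neutrophil markers was higher. Over all genes in control mice 21.4% were lower and 19.4% higher, so among these lists only the dendritic cell one stood out from that share. Ccr2 itself was lower in the CCR2+ than in the CCR2- arrays of control mice (log2 difference −1.99, limma adjusted p = 0.0184). In RbpjiΔEC mice Ccr2 did not pass (−1.26, adjusted p = 0.135), and its values overlapped between the labels in both genotypes. The CCR2- arrays thus held high levels of B cell markers and low levels of macrophage markers, and they are called by their label here. In such bulk samples fewer cells of a type and less RNA per cell cannot be told apart.

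The deposited intensities also differed in kind between the labels: the mean intensity of an array was 821 to 827 with the CCR2+ label and 481 to 762 with the CCR2- label. Label, cell make-up and this difference coincide and cannot be told apart. All values were therefore quantile normalized over the 16 arrays. Called results that turn in sign with another scaling are named where they occur, and the remaining turns are listed at the end. Within a group the arrays correlated at r = 0.971 to 0.993 over genes. The 3′ minus 5′ log2 signal of the actin control probe sets, a measure of RNA integrity, was 0.218 in CCR2+ and 0.365 in CCR2- arrays of control mice (two-sided exact permutation p = 0.0286, the smallest that 4 against 4 arrays can give). In RbpjiΔEC mice it was 0.329 and 0.341 (exact p = 0.886), and the same measure for GAPDH gave exact p = 0.486 and 1, all without adjustment. The part of these measures in the results below was not tested.

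Short promoter sequences are shown first because the same element, or a related one, stands before genes that differed between the sort labels in opposite directions. The ER stress response element (ERSE) consists of CCAAT and CCACG with 9 bases of any kind between them, and is bound by ATF6 together with the factor NF-Y. The related ERSE-II consists of ATTGG, 1 base of any kind and CCACG. Both were searched on both strands in windows from 250 bases before to 50 bases after the gene start (RefSeq, build GRCm38.p6), which were found for 29 of the 33 genes. ERSE matched in 9 of those 29 genes (Hspa5, Hsp90b1, Calr, Canx, Pdia6, Dnajc3, Creld2, Syvn1 and Derl3), and in 37 of all 27025 genes with a window (0.137%). ERSE-II matched in Dnajb11 and Herpud1, and in 12 of all genes with a window (0.0444%). Both elements share the letters CCACG, and no gene carried both. Each sequence below runs 5′ to 3′ along its gene with 15 bases on either side of the match, and capitals mark the fixed letters of the element. In Derl3 the element lies on the opposite strand and reads CGTGG then ATTGG. Not shown are Calr, which was higher in the CCR2+ arrays of both genotypes, and Hsp90b1, Dnajb11 and Creld2, which did not pass in control mice. Of the genes shown, the first 4 were higher in the CCR2+ arrays of both genotypes and the last 3 were lower. The direction of Herpud1 turned with other scalings.
Hspa5 (chr2:34772010-34772058, plus strand): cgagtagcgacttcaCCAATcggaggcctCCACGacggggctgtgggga
Canx (chr11:50325785-50325833, minus strand): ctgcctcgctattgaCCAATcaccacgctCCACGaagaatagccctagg
Pdia6 (chr12:17266476-17266524, plus strand): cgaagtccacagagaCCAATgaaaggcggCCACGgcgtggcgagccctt
Dnajc3 (chr14:118937812-118937860, plus strand): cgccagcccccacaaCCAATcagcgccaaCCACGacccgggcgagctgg
Syvn1 (chr19:6046517-6046565, plus strand): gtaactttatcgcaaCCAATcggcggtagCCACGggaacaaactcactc
Derl3 (chr10:75893227-75893275, plus strand): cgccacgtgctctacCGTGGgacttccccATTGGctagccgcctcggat
Herpud1 (chr8:94386362-94386402, plus strand): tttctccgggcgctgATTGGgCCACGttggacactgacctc

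Of the 11 genes with an ERSE or ERSE-II match, 5 were higher in CCR2+ arrays of control mice, 3 were lower and 3 did not pass. Of the 18 with a window and no match, 7 were higher, 2 lower and 9 did not pass. Of all genes 19.4% were higher and 21.4% lower there, and 18.1% and 21% in RbpjiΔEC mice. In RbpjiΔEC mice the counts were 6 higher and 3 lower with a match, and 8 higher and 2 lower without. The UPR element core TGACGTG matched in Hspa5 and Sec24d, and in 2.22% of all genes with a window. The ATF4 element TGATGCAA matched in Herpud1 and Chac1, and in 1.03% of all genes with a window. Of 87 other pathway genes with a window, 0 held ERSE or ERSE-II. A match describes the letters only.

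The sort label was the comparison in which these genes differed. In control mice 13 of the 33 were higher in the CCR2+ than in the CCR2- arrays and 6 were lower (limma, adjusted p under 0.05 over all 18194 genes). Over all genes 19.4% were higher and 21.4% lower, 40.8% in either direction. In RbpjiΔEC mice 15 were higher and 6 lower, against 18.1% and 21% of all genes, 39.1% in either direction. The median difference of the 33 genes was 0.32 in control and 0.17 in RbpjiΔEC mice, where the median of all genes was −0.03 in each. The same 13 genes were higher and the same 6 lower in both genotypes, and 0 were called in opposite directions. The groups did not overlap for 14 genes that were higher and 5 that were lower in control mice (17.9% and 19.5% of all genes), and for 13 and 7 in RbpjiΔEC mice (17.4% and 20.7%). Xbp1 and Hsp90b1 passed in RbpjiΔEC but not in control mice, a difference that was not called in the interaction, and 12 genes passed in neither. The chaperones, disulfide isomerases and co-chaperones that passed were higher in the CCR2+ arrays, except Pdia4. The sensors and the ERAD genes split between the directions. The balance of directions depended on scaling: with each array centred on its median instead, 20 of the 33 were higher and 3 lower in control mice, and the higher share of all calls went from 47.6% to 62.7%. With no normalization between arrays it was 72.6% in control and 82.6%, from 46.3%, in RbpjiΔEC mice.

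**Figure D1:**
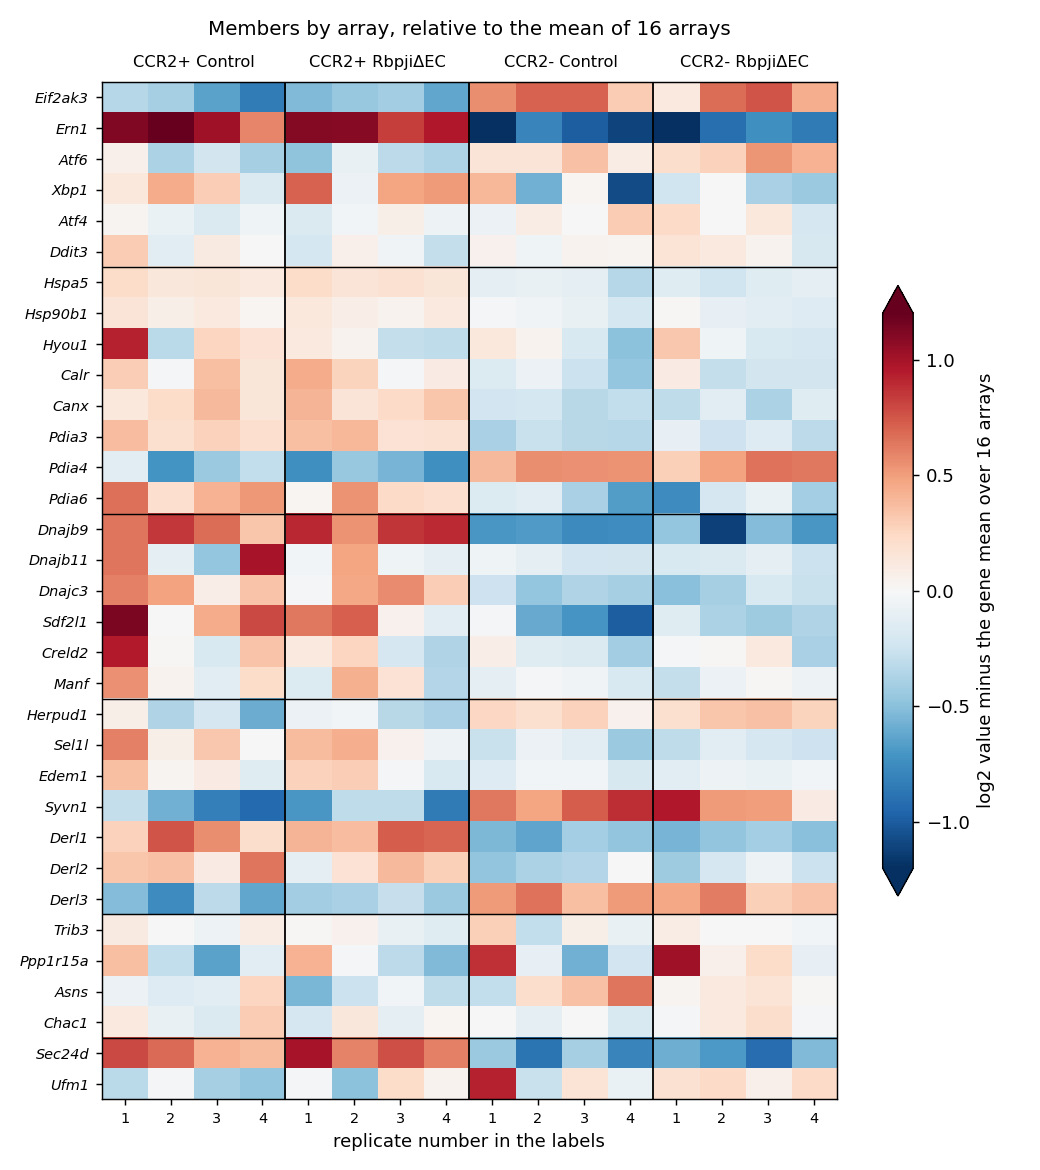
Log2 value of each gene on each of the 16 arrays minus that gene's mean over the 16 arrays (colour, red above and blue below the mean, clipped at the ends of the bar), with genes in rows by role and arrays in columns by group. Ern1, Dnajb9 and Sec24d are above their mean on every CCR2+ array and below it on every CCR2- array, and Eif2ak3, Pdia4, Syvn1 and Derl3 show the opposite.

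Among the 3 sensors, Ern1 was higher and Eif2ak3 lower in the CCR2+ arrays. Ern1, which encodes IRE1α, measured 11.67, 11.76, 11.57 and 11.15 on the CCR2+ control arrays and 9.36, 9.77, 9.57 and 9.45 on the CCR2- control arrays. The RbpjiΔEC arrays gave 11.67, 11.65, 11.39 and 11.52 against 9.25, 9.65, 9.83 and 9.71. Every CCR2+ array lay above every CCR2- array, by 2.00 ± 0.14 log2 units (SE) or 4.00-fold in control mice (adjusted p = 6.67e-09) and by 1.94 ± 0.14 in RbpjiΔEC mice (adjusted p = 9.66e-09). All 5 Ern1 probe sets differed in that direction. With the probe sets used, Ern1 had the largest difference of the 33 genes in both genotypes.

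Eif2ak3 encodes PERK. It measured 10.70, 10.65, 10.40 and 10.20 on the CCR2+ control arrays and 11.60, 11.75, 11.75 and 11.34 on the CCR2- control arrays. In RbpjiΔEC mice the values were 10.51, 10.59, 10.63 and 10.42 against 11.16, 11.71, 11.79 and 11.48. The groups did not overlap, and the differences were −1.12 ± 0.14 (SE, adjusted p = 6.54e-06) and −1.0 ± 0.14 (adjusted p = 2.53e-05). All 3 Eif2ak3 probe sets were lower in the CCR2+ arrays, but their sizes differed. Those not used gave −0.05 and −0.58 in control mice, and −0.23 and −0.79 in RbpjiΔEC mice. With no normalization between arrays the call in RbpjiΔEC mice was lost.

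Atf6, the third sensor, had group means of 11.17 ± 0.21 (SD, n = 4) in CCR2+ control, 11.09 ± 0.17 in CCR2+ RbpjiΔEC, 11.59 ± 0.12 in CCR2- control and 11.76 ± 0.14 in CCR2- RbpjiΔEC arrays. The differences between the labels were −0.42 ± 0.12 (adjusted p = 0.00763) and −0.67 ± 0.12 (adjusted p = 0.000165) with quantile normalization, but the control difference turned to 0.10 with median centring and to 0.16 with no normalization. With the probe set used, the direction of Atf6 in control mice therefore rests on the scaling. In RbpjiΔEC mice its call was lost with both, at −0.30 (adjusted p = 0.19) and −0.01 (adjusted p = 0.978). With quantile normalization the labels did not overlap in either genotype. The other Atf6 probe sets were then lower too, by −0.85 and −0.63 in control and by −0.85 and −0.68 in RbpjiΔEC mice.

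Xbp1, the target of IRE1α splicing, spread most in the CCR2- control arrays, at 12.37, 11.40, 12.00 and 10.90, against 12.10, 12.42, 12.27 and 11.80 in the CCR2+ control arrays. In RbpjiΔEC mice it measured 12.68, 11.90, 12.44 and 12.48 against 11.74, 11.97, 11.58 and 11.53. The groups overlapped in both genotypes. The difference was 0.48 ± 0.25 in control mice (adjusted p = 0.148) and 0.67 ± 0.25 in RbpjiΔEC mice (adjusted p = 0.0444). Xbp1 passed in control mice too with median centring (1.02), no normalization (1.07), the mean of all probe sets (0.96) and array weights (0.59), and leaving out 1 array gave 0.23 (without CCR2- control replicate 4) to 0.72 (without CCR2- control replicate 1, where it passed). In RbpjiΔEC mice the call was lost when any 1 array other than replicate 2 of either label was left out (0.57 to 0.68). The other 3 Xbp1 probe sets gave 0.85, 1.23 and 1.30 in control mice and 0.90, 1.47 and 1.5 in RbpjiΔEC mice. Whether any of them separates spliced from unspliced mRNA was not analysed here.

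The transcription factors of the PERK arm did not pass. Atf4 differed by −0.15 ± 0.10 (adjusted p = 0.279) and −0.09 ± 0.10 (adjusted p = 0.551), and 2 of its 3 probe sets gave values of that sign, while the other gave 0.59 and 0.55. Its sign also turned with median centring, to 0.36 and 0.29. ATF4 is controlled largely at translation, which arrays of RNA do not measure. Ddit3, which encodes the pro-apoptotic factor CHOP, differed by 0.05 ± 0.11 (adjusted p = 0.732) and −0.15 ± 0.11 (adjusted p = 0.295).

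**Figure D2:**
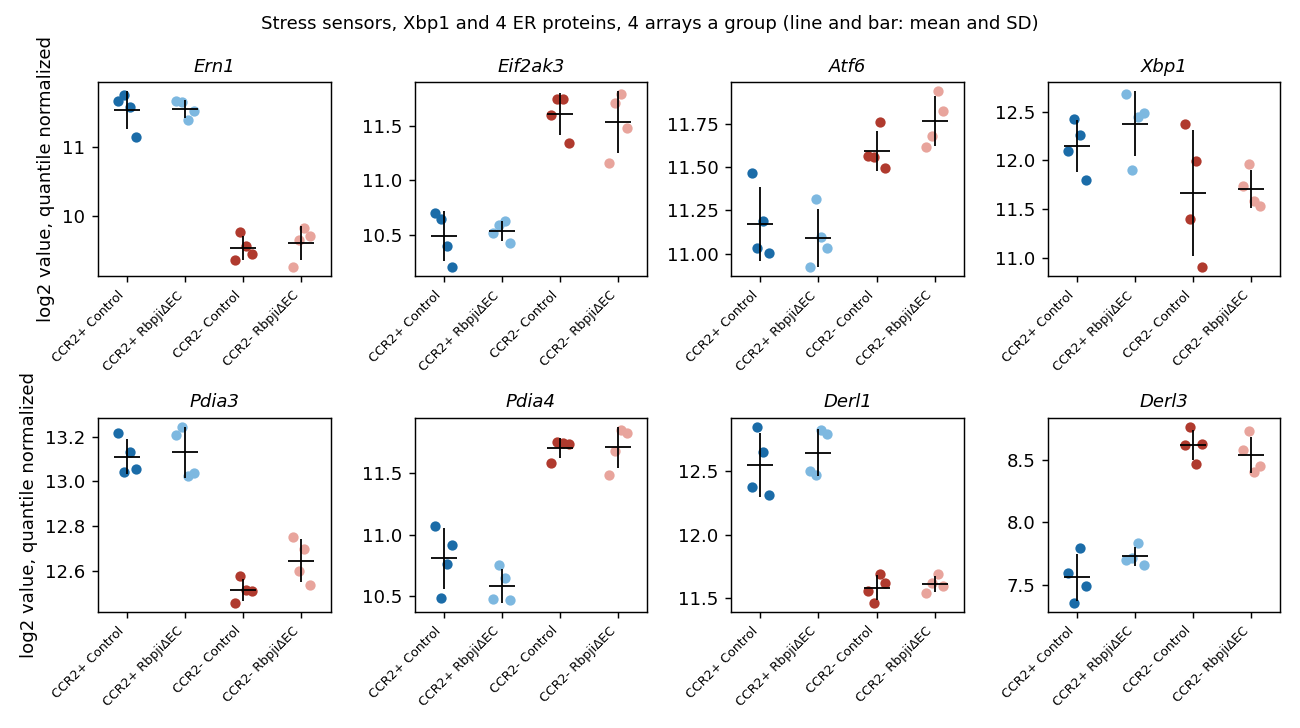
Log2 quantile-normalized value of 8 genes on each array (points), with the mean (line) and SD (bar) of each group of 4 arrays; each panel has its own vertical axis, which does not start at 0. Ern1, Pdia3 and Derl1 are higher and Eif2ak3, Pdia4 and Derl3 lower on every CCR2+ array than on any CCR2- array of the same genotype. Atf6 is lower on every CCR2+ array too, though its difference in control mice turns to 0.10 with median centring, and Xbp1 overlaps.

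Of the 8 ER chaperones and folding enzymes, 5 were higher with the CCR2+ label in control mice and 1 was lower, and 6 were higher and 1 lower in RbpjiΔEC mice. Hspa5 encodes BiP, the main HSP70 chaperone of the ER. It measured 12.88, 12.79, 12.80 and 12.78 on the CCR2+ control arrays and 12.55, 12.57, 12.54 and 12.31 on the CCR2- control arrays, and in RbpjiΔEC mice 12.87, 12.81, 12.84 and 12.80 against 12.51, 12.42, 12.51 and 12.54. The labels did not overlap, and the differences were small and alike, 0.32 ± 0.07 (adjusted p = 0.00202) and 0.34 ± 0.07 (adjusted p = 0.00139). Hsp90b1, the ER HSP90 chaperone GRP94, lay on either side of the threshold with nearly equal values, 0.18 ± 0.07 in each genotype (adjusted p = 0.0507 and 0.0485).

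The lectin chaperones Calr and Canx, which hold glycoproteins until they are folded, were both higher in the CCR2+ arrays. Calr differed by 0.44 ± 0.12 (adjusted p = 0.00971) and 0.35 ± 0.12 (adjusted p = 0.0326), and its groups overlapped in RbpjiΔEC mice. Canx differed by 0.49 ± 0.09 (adjusted p = 0.000226) and 0.52 ± 0.09 (adjusted p = 0.000127), with no overlap. The other Canx probe sets gave 0.95 and 1.36 in control mice, and 0.81 and 1.40 in RbpjiΔEC mice. Hyou1, an exchange factor for BiP, did not pass, at 0.38 ± 0.21 (adjusted p = 0.172) and −0.08 ± 0.21 (adjusted p = 0.817). The latter turned to 0.26 with median centring.

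The 3 protein disulfide isomerases, which form and rearrange disulfide bonds, were split. Pdia3, the partner of Calr and Canx, measured 13.22, 13.04, 13.13 and 13.06 on the CCR2+ control arrays and 12.46, 12.58, 12.51 and 12.51 on the CCR2- control arrays. Its differences were 0.60 ± 0.08 (adjusted p = 1.09e-05) and 0.48 ± 0.08 (adjusted p = 0.000105). Pdia6 was also higher, by 0.79 ± 0.16 (adjusted p = 0.000658) and 0.61 ± 0.16 (adjusted p = 0.00527). Its second probe set, of lower mean (8.17 against 11.88), gave 0.08 and −0.04. Pdia4 was lower: it measured 11.07, 10.48, 10.76 and 10.91 on the CCR2+ control arrays and 11.59, 11.76, 11.75 and 11.74 on the CCR2- control arrays. In RbpjiΔEC mice Pdia4 measured 10.47, 10.75, 10.64 and 10.46 against 11.49, 11.68, 11.85 and 11.83. Its differences were −0.90 ± 0.12 (adjusted p = 1.08e-05) and −1.13 ± 0.12 (adjusted p = 8.29e-07), and the groups did not overlap in either genotype. The control call of Pdia4 was lost with median centring and with no normalization, where its sign stayed negative.

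The co-chaperones and small ER proteins all had positive differences in both genotypes, and 3 of 6 passed in each. Dnajb9, or ERdj4, a BiP partner that restrains IRE1α, measured 12.09, 12.30, 12.13 and 11.78 on the CCR2+ control arrays and 10.75, 10.78, 10.69 and 10.71 on the CCR2- control arrays. The RbpjiΔEC arrays gave 12.36, 11.99, 12.30 and 12.34 against 10.99, 10.33, 10.94 and 10.75. The labels did not overlap, and the differences were 1.35 ± 0.14 (adjusted p = 5.63e-07) and 1.5 ± 0.14 (adjusted p = 1.53e-07). Dnajc3, or p58IPK, an inhibitor of PERK and a co-chaperone of BiP, was higher by 0.75 ± 0.13 (adjusted p = 0.000191) and 0.66 ± 0.13 (adjusted p = 0.000609). Its other probe sets gave larger differences, 1.19 to 2.40 in control and 1.39 to 2.33 in RbpjiΔEC mice.

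Sdf2l1, which works with BiP cofactors in the ER, measured 11.83, 10.70, 11.14 and 11.49 on the CCR2+ control arrays and 10.68, 10.10, 9.99 and 9.71 on the CCR2- control arrays. In RbpjiΔEC mice it measured 11.33, 11.41, 10.75 and 10.57 against 10.56, 10.32, 10.27 and 10.34. The spread within groups was wide, but the labels did not overlap, and the differences were 1.17 ± 0.24 (adjusted p = 0.000918) and 0.65 ± 0.24 (adjusted p = 0.0459). Dnajb11, Creld2 and Manf did not pass in either genotype, with values from 0.02 (Creld2 in RbpjiΔEC mice) to 0.44 (Creld2 in control mice). Dnajb11, or ERdj3, delivers clients to BiP, and Manf encodes a secreted ER stress protein.

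**Figure D3:**
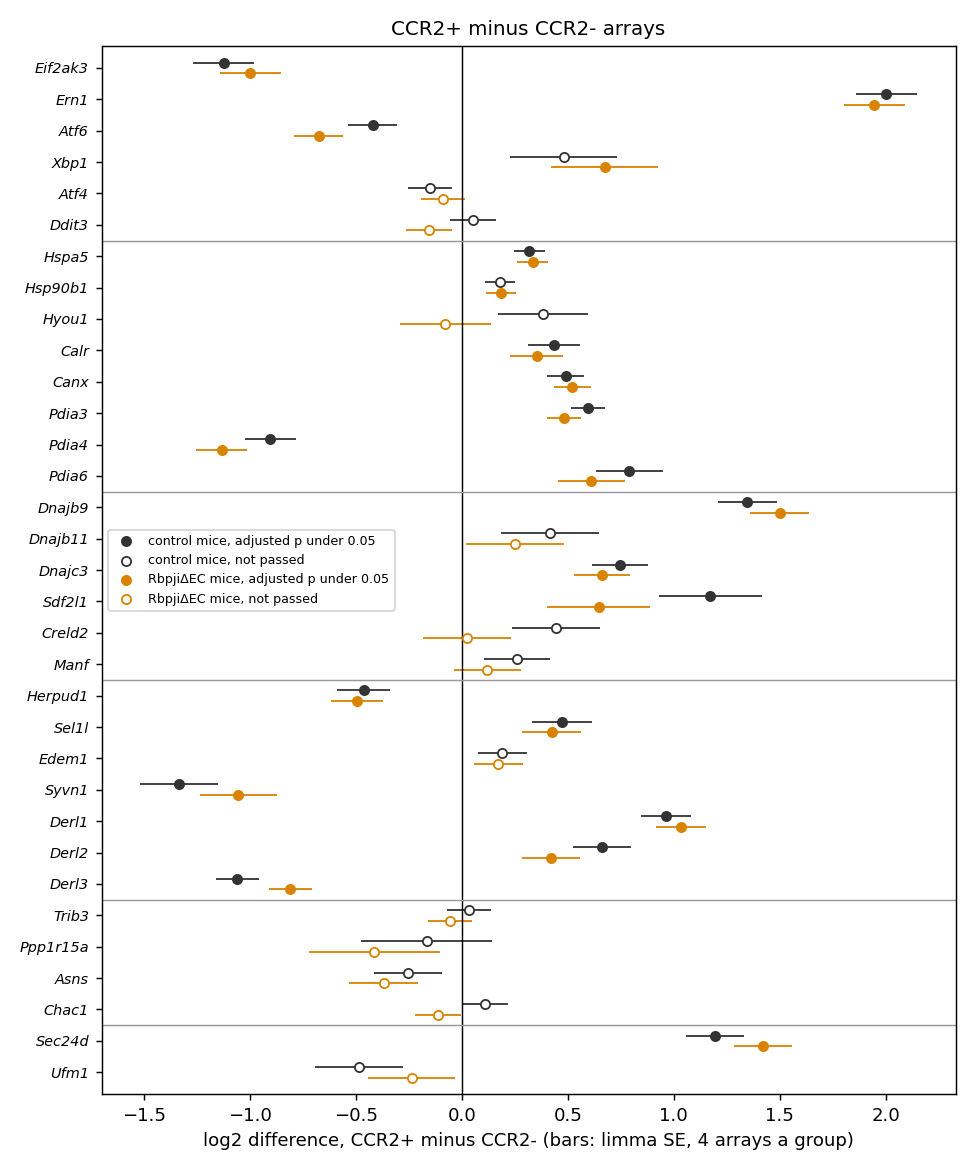
Log2 difference of CCR2+ minus CCR2- arrays for each of the 33 genes in control mice (dark) and RbpjiΔEC mice (orange), with limma SE as bars, 4 arrays a group; filled points passed at adjusted p under 0.05. Ern1, Dnajb9 and Sec24d lie farthest to the right and Syvn1, Eif2ak3, Pdia4 and Derl3 farthest to the left, while Atf6 in control mice and Herpud1 in both genotypes, left of 0 here, turn to the right with no normalization between arrays.

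The 7 ERAD genes split evenly, with 3 higher, 3 lower and 1 not passed in each genotype. The derlins, membrane proteins of the channel through which misfolded proteins leave the ER, stood on opposite sides. Derl1 measured 12.38, 12.85, 12.66 and 12.31 on the CCR2+ control arrays and 11.56, 11.47, 11.69 and 11.62 on the CCR2- control arrays. Its differences were 0.96 ± 0.12 (adjusted p = 4.22e-06) and 1.03 ± 0.12 (adjusted p = 1.95e-06), and its other 3 probe sets gave larger ones, up to 2.40 in control mice. Derl2 was higher by 0.66 ± 0.14 (adjusted p = 0.000901) and 0.42 ± 0.14 (adjusted p = 0.0221).

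Derl3, the derlin known from secretory tissues, was lower in the CCR2+ arrays. It measured 7.59, 7.36, 7.80 and 7.49 on the CCR2+ control arrays and 8.62, 8.76, 8.47 and 8.62 on the CCR2- control arrays, and in RbpjiΔEC mice 7.70, 7.72, 7.84 and 7.66 against 8.57, 8.73, 8.40 and 8.45. No CCR2+ value reached a CCR2- value, and the differences were −1.06 ± 0.10 (adjusted p = 2.71e-07) and −0.81 ± 0.10 (adjusted p = 6.73e-06). The same arrays differed in Mzb1 by −5.01 and −4.94, and the part of B lineage RNA in the Derl3 difference was not tested.

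Syvn1 encodes HRD1, the ubiquitin ligase of ERAD, and Sel1l the subunit that holds HRD1 in its complex. The 2 partners differed in opposite directions. Syvn1 measured 9.96, 9.68, 9.43 and 9.31 on the CCR2+ control arrays and 10.89, 10.72, 10.98 and 11.13 on the CCR2- control arrays, a difference of −1.33 ± 0.18 (adjusted p = 1.42e-05). In RbpjiΔEC mice it measured 9.55, 9.94, 9.95 and 9.40 against 11.21, 10.76, 10.75 and 10.34, a difference of −1.05 ± 0.18 (adjusted p = 0.00017) that was not called with no normalization between arrays. Sel1l was higher by 0.47 ± 0.14 (adjusted p = 0.012) and 0.42 ± 0.14 (adjusted p = 0.0235). Edem1, a lectin that passes glycoproteins on to ERAD, did not pass, at 0.19 ± 0.12 and 0.17 ± 0.12 (adjusted p = 0.209 and 0.271).

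Herpud1, which organizes the HRD1 complex, differed by −0.46 ± 0.12 (adjusted p = 0.00613) and −0.49 ± 0.12 (adjusted p = 0.00404) with quantile normalization, but by 0.09 in control mice with median centring and by 0.15 and 0.17 with no normalization. Its direction, like that of Atf6, rests on the scaling.

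Downstream of PERK and ATF4, 0 of 4 targets passed in either genotype with the probe sets used. Asns, the asparagine synthetase gene, differed by −0.25 ± 0.16 (adjusted p = 0.237) and −0.37 ± 0.16 (adjusted p = 0.0838). Ppp1r15a encodes GADD34, which restores translation, and had the largest limma SE of the 33 genes. It ranged from 7.5 to 8.95 in the CCR2- control arrays, with differences of −0.17 ± 0.31 and −0.41 ± 0.31 (adjusted p = 0.329 for the latter). With the replicate number as a block, the value in RbpjiΔEC mice was −0.41 ± 0.14 and passed (adjusted p = 0.0352). Chac1, which degrades glutathione, stayed between 6.52 and 7.03 on all arrays, close to the 6.35 to 6.51 of the bacterial trp control probe sets, so it was hardly detectable here. Trib3, a pseudokinase that dampens ATF4, gave 0.03 ± 0.10 and −0.05 ± 0.10, but its second probe set, of nearly the same mean, gave 1.23 and 1.44. With the mean of all probe sets Trib3 passed in both genotypes, at 0.63 and 0.69 (limma adjusted p = 7.34e-06 and 2.74e-06). The result for Trib3 therefore rests on the probe set. Trib3 and Asns were also low, at means of 7.32 and 7.45 over the 16 arrays.

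Sec24d, a cargo subunit of the COPII coat that buds vesicles from the ER, measured 11.28, 11.17, 10.90 and 10.87 on the CCR2+ control arrays and 10.04, 9.61, 10.09 and 9.70 on the CCR2- control arrays. With RbpjiΔEC the values were 11.48, 11.09, 11.27 and 11.09 against 9.90, 9.80, 9.58 and 9.96. Its differences were among the larger ones and called in each genotype, 1.2 ± 0.14 (adjusted p = 1.88e-06) and 1.42 ± 0.14 (adjusted p = 2.37e-07). Ufm1, a ubiquitin-like modifier of ER proteins, did not pass, at −0.49 ± 0.21 (adjusted p = 0.0729) and −0.24 ± 0.21 (adjusted p = 0.408), and its other 4 probe sets gave positive values.

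The calls between the labels were compared across the alternatives. Of the 40 calls of single genes between the labels, 27 were made with the same direction under every alternative that was run. They comprised 16 genes in control and 11 in RbpjiΔEC mice, and 10 genes held in both: Ern1, Hspa5, Canx, Pdia3, Pdia6, Dnajb9, Dnajc3, Derl1, Derl3 and Sec24d. The results that were not called were less stable: of 26, 0 stayed without a call or a change of sign under every alternative. In control mice Hyou1, Dnajb11, Creld2, Manf and Edem1 passed as higher with median centring and with no normalization. Hsp90b1 passed there under 7 alternatives. Leaving out 1 of the RbpjiΔEC arrays, whichever it was, lowered the higher calls in those mice from 15 to between 10 and 12, and those lost were among Xbp1, Hsp90b1, Calr, Sdf2l1, Sel1l and Derl2. Median centring moved the median of the 33 genes from 0.32 to 0.84 in control mice and from 0.17 to 0.51 in RbpjiΔEC mice, while the median of all genes was −0.03 and −0.06. With no normalization the median of all genes in RbpjiΔEC mice moved from −0.03 to 0.23, and that of the 33 genes from 0.17 to 0.80, while the median genotype difference of all genes in the CCR2- arrays moved to −0.16.

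**Figure D4:**
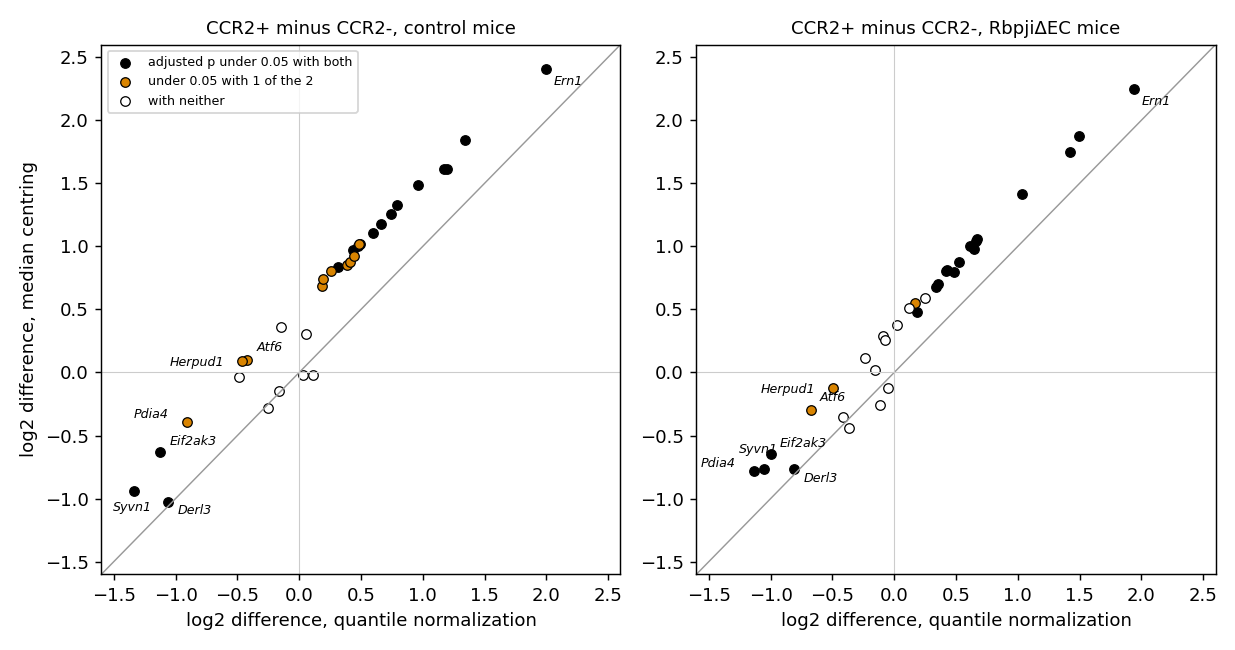
Log2 difference of CCR2+ minus CCR2- arrays for the 33 genes with quantile normalization (horizontal) and with median centring (vertical), in control mice (left) and RbpjiΔEC mice (right); the grey line marks equality. Nearly all points lie above the line, and in control mice Atf6 and Herpud1, at −0.42 and −0.46 on the horizontal axis, lie at 0.10 and 0.09 on the vertical one.

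Other genes of the same pathways were counted from a list of 112, of which 101 were measured. With the CCR2+ label 39 of them were higher in control mice and 12 lower, and in RbpjiΔEC mice 35 were higher and 13 lower. The shares of all genes, 19.4% higher and 21.4% lower in control and 18.1% and 21% in RbpjiΔEC mice, are the background for these counts and for the smaller lists, several of which, such as the ERAD and COPII genes, lie near it. Of 19 other folding enzymes and chaperones, 11 were higher and 1 lower in each genotype, and Pdia5, another disulfide isomerase, differed by 2.56 ± 0.17 in control and 2.31 ± 0.17 in RbpjiΔEC mice. Of 17 genes of translocation into the ER and signal peptide removal, 8 were higher in control and 10 in RbpjiΔEC mice, and 0 were lower. Of 12 other ERAD genes 3 were higher and 2 lower in each genotype. Of 10 other COPII genes 2 were higher in control and 3 in RbpjiΔEC mice, with 0 lower. Of 6 other UFM1 pathway genes 2 were higher and 1 lower in control mice, and 0 were higher and 1 lower in RbpjiΔEC mice.

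The other targets of ATF4 and of the integrated stress response were mixed: of 21, 6 were higher and 7 lower in control mice, and 3 were higher and 7 lower in RbpjiΔEC mice. Ddit4, an inhibitor of mTORC1 signalling, differed by −2.74 ± 0.32 and −3.11 ± 0.32. Slc7a1, a transporter of cationic amino acids, differed by −2.06 ± 0.15 and −2.38 ± 0.15. Shmt2, of mitochondrial one-carbon metabolism, differed by −1.40 ± 0.20 in control mice, and Slc7a5, a transporter of large neutral amino acids, by −1.69 ± 0.15 in RbpjiΔEC mice. Of 16 other sensors and transcription factors, 7 were higher and 1 lower in control mice, and 5 higher and 2 lower in RbpjiΔEC mice. Nupr1, a stress-induced chromatin protein, differed by 3.98 ± 0.14 and 3.97 ± 0.14, and Cebpb, a transcription factor of the myeloid lineage, by 3.11 ± 0.16 and 3.43 ± 0.16. The differences of these named genes passed in the genotypes given (adjusted p at most 1.93e-05, Shmt2).

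The second question of the design was whether endothelial loss of Rbpj altered these genes in cells of each sort label. The CCR2- arrays held high B cell and low macrophage marker levels, so their result does not stand for macrophages alone. Of the 33 genes, 0 passed between RbpjiΔEC and control arrays in either sort, and 0 had groups that did not overlap. Of all genes, the RbpjiΔEC arrays lay wholly above the controls for 2.08% and wholly below for 1.3% with the CCR2+ label, and for 0.797% and 0.758% with the CCR2- label. The background was 0% of all 18194 genes called by limma in each sort. At an unadjusted p under 0.05 there were 0 of the 33 genes in each sort, against 830 of all genes (4.56%) for CCR2+ and 390 (2.14%) for CCR2-.

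In the CCR2+ arrays the differences ran from −0.37 (Hyou1) to 0.24 (Ufm1), with a median near 0, and 29 of the 33 lay within 0.25 of 0. In the CCR2- arrays they ran from −0.17 (Syvn1) to 0.31 (Ppp1r15a), with 31 within 0.25. All 33 of the 95% intervals lay inside a 2-fold change, 1 log2 unit, in each sort. The widest bounds were −0.82 (Hyou1) and 0.77 (Xbp1) in the CCR2+ arrays and −0.55 (Syvn1) and 0.97 (Ppp1r15a) in the CCR2- arrays. Among the sensors, Ern1 differed by 0.02 ± 0.14 and 0.07 ± 0.14, Eif2ak3 by 0.05 ± 0.14 and −0.08 ± 0.14, and Atf6 by −0.08 ± 0.12 and 0.17 ± 0.12, in the CCR2+ and CCR2- arrays in turn. Hspa5 differed by 0.02 ± 0.07 and 0.00 ± 0.07.

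The most negative values in the CCR2+ arrays varied with the control array left out. Hyou1 measured 11.65, 10.41, 10.98 and 10.90 on the CCR2+ control arrays and 10.85, 10.77, 10.44 and 10.42 on the CCR2+ RbpjiΔEC arrays. Creld2, a disulfide isomerase-like ER protein, measured 11.85, 10.91, 10.72 and 11.24 against 11.02, 11.16, 10.70 and 10.54. In Hyou1, Creld2, Sdf2l1 and Manf the CCR2+ control replicate 1 was the highest of the 8 arrays. It was the highest of its group for 21 of the 33 genes, and CCR2+ RbpjiΔEC replicate 4 was the highest of its group for 0 and the lowest for 16. Without CCR2+ control replicate 1 the genotype difference moved from −0.37 to −0.14 for Hyou1, from −0.33 to −0.10 for Creld2 and from −0.28 to −0.10 for Sdf2l1. Without replicate 2 it was −0.56 for Hyou1 and −0.47 for Sdf2l1, and without replicate 3 it was −0.48 for Creld2. All these values stayed negative and none passed.

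**Figure D5:**
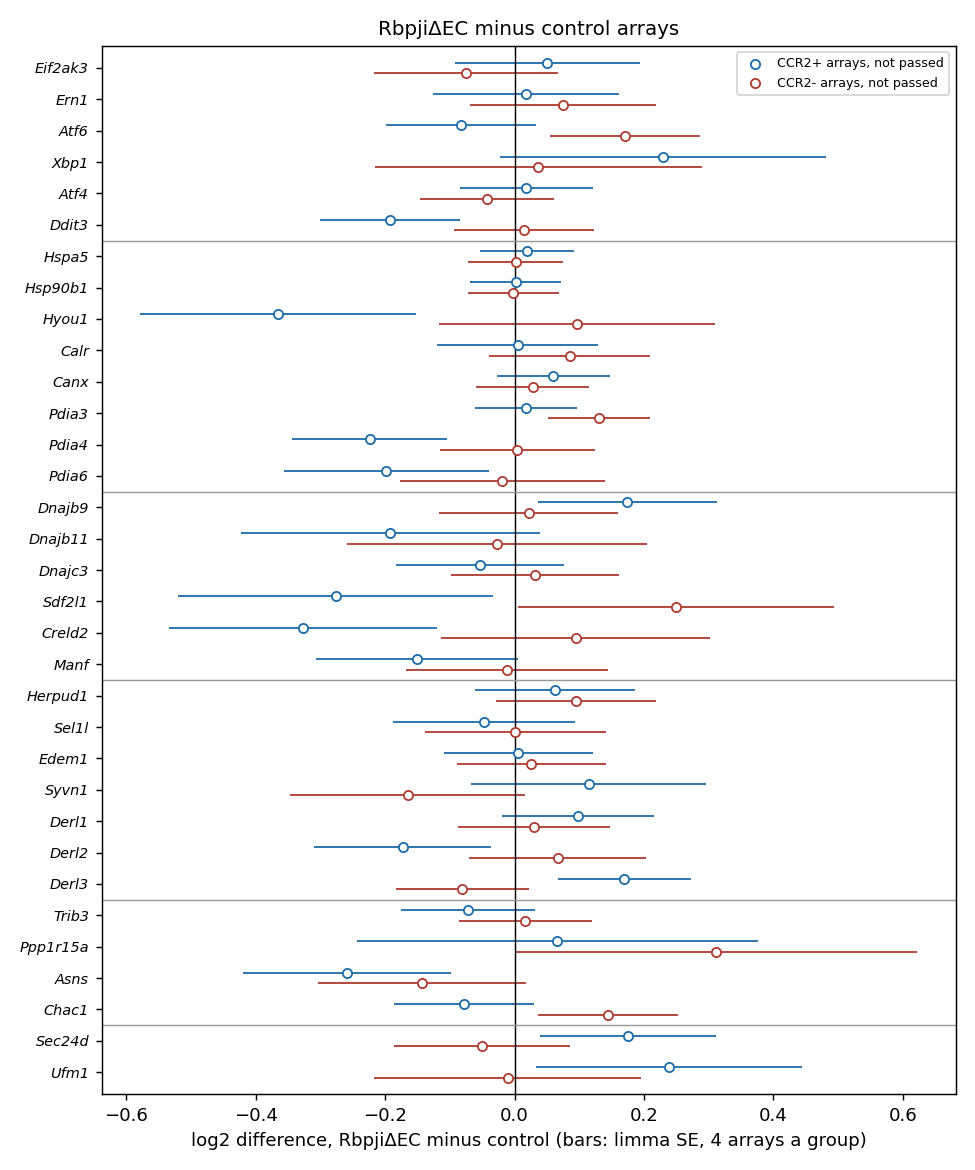
Log2 difference of RbpjiΔEC minus control arrays for the 33 genes in the CCR2+ arrays (blue) and the CCR2- arrays (red), with limma SE as bars, 4 arrays a group; all points are open because none passed at adjusted p under 0.05. The axis spans less than that of the label comparison, and the values run from −0.37 for Hyou1 to 0.31 for Ppp1r15a.

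The difference between the 2 genotype effects was tested as an interaction. Again 0 of the 33 genes and 0 of all genes (0%) passed, with 0 of the 33 and 555 of all genes (3.05%) at an unadjusted p under 0.05. The values ran from −0.53 ± 0.35 (Sdf2l1) to 0.28 ± 0.26 (Syvn1). For 29 of the 33 genes the 95% interval lay inside 1 log2 unit, and for Sdf2l1, Hyou1, Creld2 and Ppp1r15a it did not.

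Among the other pathway genes 0 passed between the genotypes. The smallest p in the CCR2+ arrays belonged to Sec61b, a subunit of the translocation channel. It measured 11.83, 12.02, 11.64 and 12.35 on the control arrays and 10.46, 11.24, 10.84 and 10.78 on the RbpjiΔEC arrays, which did not overlap, a difference of −1.13 ± 0.17 (adjusted p = 0.0835). In the CCR2- arrays the smallest p belonged to Ddit4, at 0.74 ± 0.32 (adjusted p over 0.99), and Sec61b differed by −0.02 ± 0.17 there. Its interaction was −1.11 ± 0.24 (adjusted p over 0.99).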

How the data were processed

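The authors deposited linear probe set intensity values for 45101 probe sets on 16 arrays, and their scaling step is not given in these sources. The values were log2 transformed and quantile normalized over the 16 of them together. There were 34958 probe sets with 1 symbol in the platform annotation, 932 with several and 9211 with none, and only the first were used, the probe set of highest mean standing for a gene, which left 18194 genes.

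A linear model with a mean for each group was fitted to all arrays in limma 3.58.1 (R 4.3.3). Its moderated two-sided tests were adjusted by the Benjamini-Hochberg procedure across the 18194 genes. Errors of differences are limma SE. The number of arrays limits the precision. In simulated data with 18194 genes, 50 genes were shifted by each of 0.5, 1, 1.5 and 2 log2 units at once in a comparison. Of those shifted by 1, the fit found 90% in the control label, 90% in the CCR2+ genotype and 82% in the CCR2- genotype comparison. Of the 50 genes shifted by 0.5 it found 50%, 48% and 44% in turn. The shares hold for that many changed genes and do not give the sensitivity for a lone change, as the adjustment is then stricter.

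The 33 genes, the pathway lists and the marker lists were chosen with earlier results of these data known. All 33 are named, and of the other pathway genes in each comparison the 3 with the largest difference in each direction among those that passed, or, where none passed, that with the smallest p. Marker genes are given as lists, with a few fixed ones by value. Same-numbered arrays of different groups deviated together unevenly (24 pairs, r from −0.38 to 0.40, 8 over 0.1). Only CCR2+ and CCR2- arrays of the same genotype could share mice. By replicate number these gave r of 0.05, −0.03, 0.21 and 0.40 in control mice, and 0.24, 0.04, 0.06 and 0.13 in RbpjiΔEC mice. The labels do not state pairs, so the numbers were not used as pairs in the main fit, only as a block in an alternative. Promoter windows are RefSeq's, build GRCm38.p6.

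The alternatives were median centring, no normalization between arrays, normalization within each sort label, the mean of all probe sets, genes above the lowest tercile of intensity, eBayes with trend and robust, array weights, only the groups compared, the replicate number as a block, and leaving out each array.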

Additional observations from a re-analysis of the deposited data

Results flagged for a closer look

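Of 132 groups of 4 arrays (33 genes in 4 groups), 4 (3.03%) had 1 array far from the other 3, by Dixon's ratio of the gap to the whole range with its 95% critical value. Chance alone flags about 1 in 20 such groups. Hspa5 in the CCR2- control arrays had replicate 4 low, at 12.31 against 12.54 to 12.57, a ratio of 0.893. Pdia4 in the CCR2- control arrays had replicate 1 low, at 11.59 against 11.74 to 11.76, a ratio of 0.908. Dnajb9 in the CCR2+ RbpjiΔEC arrays had replicate 2 low, at 11.99 against 12.30 to 12.36, a ratio of 0.857. Dnajb11 in the same group had replicate 2 high, at 11.35 against 10.77 to 10.85, a ratio of 0.862.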

How the results depend on the processing

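The 2 scalings moved most. Both median centring and no normalization between arrays called 20 of the 33 genes higher in control mice and 3 lower, and without normalization 2 were lower in RbpjiΔEC mice. Without normalization the counts over all genes were 1730 lower in control mice, and 5689 higher and 1197 lower in RbpjiΔEC mice. The cause was not tested. In the label comparison of control mice, median centring turned Atf6 to 0.10, Atf4 to 0.36, Herpud1 to 0.095, Trib3 to −0.022 and Chac1 to −0.023. In RbpjiΔEC mice it turned Atf4 to 0.29, Ddit3 to 0.017, Hyou1 to 0.26 and Ufm1 to 0.12, and the CCR2- genotype difference of Ufm1 to 0.045. No normalization turned, in control mice, Atf6 to 0.16, Atf4 to 0.42, Herpud1 to 0.15 and Ufm1 to 0.022. In RbpjiΔEC mice it turned Atf4 to 0.57, Ddit3 to 0.31, Hyou1 to 0.55, Herpud1 to 0.17, Trib3 to 0.17, Chac1 to 0.027 and Ufm1 to 0.41. The CCR2- genotype differences of Hyou1 and Creld2 became −0.032 and −0.037. The mean of all probe sets turned Atf4 to 0.089 and Ufm1 to 0.22 in control mice, and Atf4 to 0.13, Hyou1 to 0.20, Trib3 to 0.69 and Ufm1 to 0.17 in RbpjiΔEC mice. It turned the genotype differences of Ufm1 to −0.0012 and of Syvn1 to −0.011 in the CCR2+ arrays, and of Ufm1 to 0.052 in the CCR2- arrays. Array weights turned Creld2 to −0.081 in the RbpjiΔEC label comparison, and the genotype differences of Ppp1r15a to −0.033 in the CCR2+ and of Ufm1 to 0.13 in the CCR2- arrays. Of these, Atf6 in control mice and Herpud1 in both genotypes had been called.

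In the CCR2+ genotype comparison over all genes the mean of all probe sets called 2 genes, both lower, and the filter on the lowest tercile, array weights and the replicate block 1 each, lower. With the replicate block, 13 of the 33 genes were higher and 6 lower in control mice, and 14 and 7 in RbpjiΔEC mice; in RbpjiΔEC mice it ended the call of Hsp90b1 and made one of Ppp1r15a, at −0.41 (adjusted p = 0.035), and it changed no other call of the 33 genes. Between the genotypes 0 of the 33 genes were called under any alternative.

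Leaving out 1 array at a time, 19 to 22 of the 33 genes were called in control mice (13 to 15 higher, 6 to 7 lower) and 16 to 19 in RbpjiΔEC mice (10 to 12 higher, 6 to 7 lower). Over all genes the calls were 6836 to 7374 in control mice (3232 to 3515 higher, 3520 to 3859 lower) and 6507 to 6864 in RbpjiΔEC mice (3029 to 3232 higher, 3443 to 3740 lower). They were 0 to 2 for the genotype in the CCR2+ arrays (0 to 1 in each direction), 0 to 1 in the CCR2- arrays (0 to 1 in each direction) and 0 for the interaction. Some small differences changed sign. In the control label comparison Ddit3 ran from −0.024 to 0.12, Ppp1r15a from −0.36 to 0.13 and Trib3 from −0.061 to 0.13. In the RbpjiΔEC one Creld2 ran from −0.082 to 0.13, Manf from −0.014 to 0.24 and Hyou1 from −0.15 to 0.039. The genotype difference of Ppp1r15a in the CCR2+ arrays ran from −0.11 to 0.25, and in the CCR2- arrays that of Ufm1 from −0.16 to 0.24 and that of Hyou1 from −0.024 to 0.18. None of these was called with all arrays. Levels near the control probe sets, as for Chac1, limit what could be seen, as does the number of arrays.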
